A study of Rattus norvegicus with 32 samples.

Results

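The opioid genes were followed through RNA-seq libraries of 4 brain regions of adult male Sprague-Dawley rats. NAc stands for the nucleus accumbens, SVZ for the subventricular zone, and DG and CA for the parts of the hippocampus known as dentate gyrus and Ammon's horn. The set held 8 genes, taken by symbol from the 28914 gene names in the count files: the precursor genes Penk, Pdyn, Pomc and Pnoc and the receptor genes Oprm1, Oprd1, Oprk1 and Oprl1. All 8 were present in each of the 32 samples and passed the filter on low counts in every comparison. Rats had received methamphetamine (METH, 10 mg/kg) or saline (Sal, 1 mL/kg) in 4 intraperitoneal injections given 2 h apart, and tissue was taken 24 h after the last. Each region gave 4 METH and 4 saline samples, and a name such as DG Sal 3 gives the region, the treatment and the number of the replicate. The NAc and SVZ were punched from frozen slices, the DG and CA were scooped out by hand, and a single hemisphere of each brain went to RNA-seq. No transgene or deletion was involved, and both treatments shared the same strain, sex, schedule and dissection.

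Opioid peptides are cut from large precursor proteins. Penk encodes the precursor of the enkephalins, Pdyn that of the dynorphins, Pomc that of β-endorphin and of the melanocortins, and Pnoc that of nociceptin. Oprm1, Oprd1 and Oprk1 encode the μ, δ and κ receptors, and Oprl1 the nociceptin receptor. All are coupled to inhibitory G proteins. In the striatum, which includes the NAc, Penk is a classic marker of medium spiny neurons that carry the D2 dopamine receptor (the indirect pathway) and Pdyn of those that carry the D1 receptor (the direct pathway), and Pdyn is known to respond to psychostimulants. Dentate granule cells also make dynorphins, whereas Pomc neurons lie mainly in the hypothalamus.

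In the rn6 annotation of the count files, Penk spanned chr5:17056419-17061837 and Oprk1 chr5:13744658-13760305, with Oprd1 at chr5:150288126-150323063 on the same chromosome. Pdyn lay at chr3:122194329-122206671 and Oprl1 at chr3:177225737-177231663. Pomc lay at chr6:28382962-28388967, Pnoc at chr15:48805228-48833285 and Oprm1 at chr1:43454803-43704948. Counts covered the exons of each gene without regard to strand. The longest overlap of an Oprm1 exon with an exon of Ipcef1, a gene of the opposite strand, was 68 bases. Reads on shared bases could not be assigned to either gene by strand. RefSeq promoters (build GRCr8, 250 bases before to 50 after the annotated start) were found for Pdyn, Pomc, Oprd1 and Oprm1. The promoters of Pdyn and Pomc are shown because of their levels in the NAc with METH (below). Both genes overlapped between the treatments there, and neither was called. Pdyn lay above all saline samples in 3 METH samples and Pomc in 1, and the share of all genes that did so was not computed. Capitals mark the TATA box letters TATAAA and the GC box letters GGGCGG, searched on both strands.
Pdyn (chr3:137366454-137366753, minus strand): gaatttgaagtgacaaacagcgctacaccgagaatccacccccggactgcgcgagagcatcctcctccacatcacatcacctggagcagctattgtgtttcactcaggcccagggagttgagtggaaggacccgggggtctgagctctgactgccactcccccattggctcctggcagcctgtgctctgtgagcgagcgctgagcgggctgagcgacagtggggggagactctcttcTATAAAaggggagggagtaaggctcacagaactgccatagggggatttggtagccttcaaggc
Pomc (chr6:32659103-32659402, plus strand): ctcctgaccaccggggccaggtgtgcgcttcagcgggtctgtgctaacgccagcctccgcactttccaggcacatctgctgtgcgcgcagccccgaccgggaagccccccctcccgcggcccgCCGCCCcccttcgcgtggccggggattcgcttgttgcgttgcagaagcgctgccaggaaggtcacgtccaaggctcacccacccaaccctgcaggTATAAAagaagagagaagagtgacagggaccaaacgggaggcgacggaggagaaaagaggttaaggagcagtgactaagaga
TATAAA was found in both and began 13 bases before the annotated start of Pdyn and 32 before that of Pomc. The windows of Oprd1 and Oprm1 did not hold it. Of the 33469 rat promoters of this length, 14.22% held these letters. GGGCGG was found on the minus strand of the Pomc window, in neither strand of the Pdyn window and in 33.06% of all windows. The letters of the cyclic AMP response element, TGACGTCA, were found in 1.83% of all windows and in none of the 5 windows of the opioid genes, and those of an AP-1 site, TGANTCA, in 7.33% and in none of the 5.

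Total counts lay between 11094002 and 21869773 per sample. Levels are given in CPM, the counts scaled to a common library size by upper quartiles, and 1 read was worth 0.0459 to 0.0940 CPM. Several libraries stood apart from their region by summed markers of other cell populations. NAc METH 3 had a striatal marker sum (8 genes of medium spiny neurons) of 159 CPM, against 1323 to 7607 in the other NAc samples, and a hypothalamic sum (5 genes, mainly Oxt and Avp) of 1566 CPM. DG Sal 3 had a striatal sum of 1590.0 CPM against 164 to 364 in the other DG samples. SVZ Sal 1, SVZ METH 2 and SVZ METH 4 had thalamic sums (4 genes) of 1661, 1449.6 and 989 CPM against 71.4 to 467 in the other SVZ samples, with striatal sums of 285, 212 and 580.0 CPM. The main results below are also given without these 5 libraries. That choice followed marker genes that move with Penk and Oprk1, and so it gives no independent support. Summed markers of the choroid plexus set 4 further libraries apart, with 7989 CPM in SVZ METH 3, 5945 in DG METH 3, 1988 in DG Sal 4 and 2077 in CA Sal 2, against 5.5 to 365, 0.6 to 172 and 1.8 to 339 CPM in the other SVZ, DG and CA samples. These 4 stayed in the fits without the 5 libraries, and the part of choroid plexus tissue in the results was not tested. The summed markers of dentate granule cells (5 genes) overlapped between DG and CA, with 28.3 to 202 CPM in DG Sal and 46.3 to 397 in CA Sal. With METH the sums were 73.2 to 415 CPM in the DG and 67.7 to 199.6 in the CA. The means were 89.8 (DG Sal), 277 (DG METH), 223 (CA Sal) and 119 CPM (CA METH). The summed markers of CA pyramidal neurons (5 genes) were 1156 to 1837 CPM in CA Sal and 984 to 1072 in CA METH. All CA METH sums thus lay below all CA Sal sums. In the DG they were 409 to 999 CPM with saline and 985 to 2030 CPM with METH. The part of granule cells and pyramidal neurons in the results of these 2 regions was not tested. The headers of the count files held a text label, called a run here, although whether it stands for a sequencing run was not checked. CA Sal 1 and 2 carried the label merged. All SVZ samples shared a label that no other region had, so that the SVZ and its label cannot be told apart. The headers also named library numbers, which recurred in the NAc, DG and CA, so that these samples may hold several regions of 1 rat, while each comparison of regions took all its samples as independent. Those of DG Sal 1 and 2 belonged to METH samples in the NAc and CA, while those of DG METH 1 and 2 belonged to saline samples there. Groups follow the labels, and whether the treatments of these DG libraries were exchanged was not tested. The 4 SVZ METH libraries carried 2 library numbers between them.

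Per kilobase of exon, Penk had the highest median of the opioid genes in saline NAc, DG and SVZ, and in the CA its median was next to that of Pdyn. In NAc Sal the order of the median levels was Penk (319 CPM per kb), Pdyn (43.0), Oprl1 (12.3), Oprk1 (7.62), Oprd1 (5.05), Oprm1 (4.45), Pnoc (2.16) and Pomc (1.47). Penk did not overlap with Pdyn there, with 151 to 694 CPM per kb against 33.9 to 80.2, and each Pdyn value lay above each receptor value. The ranges of neighbours from Oprl1 to Pomc overlapped. In CA Sal the first 3 were Pdyn (median 15.6, range 7.58 to 35.6), Penk (15.5, 10.4 to 50.3) and Oprl1 (13.8, 9.44 to 16.2), whose ranges overlapped. Oprk1 followed Pdyn in SVZ Sal (8.54 CPM per kb) and came last in DG Sal (1.01) and CA Sal (0.942).

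Penk, the enkephalin precursor gene, varied more than the other opioid genes across the 32 samples, from 12.5 CPM in DG METH 4 to 1240.1 CPM in SVZ Sal 3, a 99.3-fold range. In the NAc, Penk stood at 1181, 360.2, 727 and 257 CPM in the saline samples and at 717, 729, 113 and 749 CPM in the METH samples. The lowest NAc value was that of NAc METH 3, the library with few striatal markers. In the SVZ, Penk stood at 64.2, 625, 1240.1 and 709.6 CPM with saline and at 269, 37.0, 692 and 314 CPM with METH, and the lowest value of each group came from a library with high thalamic markers. Levels in the hippocampal regions were lower, at 26.5, 33.5, 369 and 57.4 CPM in DG Sal, 32.6, 18.1, 99.3 and 12.5 CPM in DG METH, 17.8, 85.6, 30.3 and 22.3 CPM in CA Sal and 13.0, 49.8, 267 and 56.8 CPM in CA METH. The 369 CPM of DG Sal 3, the library with high striatal markers, lay within the range of the NAc, and the 267 CPM of CA METH 3 went with the highest striatal sum among the CA samples (476 CPM).

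Pdyn, the dynorphin precursor gene, stood at 119, 82.7, 196 and 91.1 CPM in NAc Sal and at 221, 297, 59.8 and 262 CPM in NAc METH. The 3 METH samples other than NAc METH 3 lay above all 4 saline samples, and NAc METH 3 lay below them, so the groups overlapped. In the SVZ the values were 19.2, 134, 117 and 113 CPM with saline and 79.0, 13.3, 130.3 and 77.9 CPM with METH, again lowest in libraries with high thalamic markers. In the hippocampal regions Pdyn ranged from 5.08 CPM (DG Sal 4) to 93.4 CPM (DG Sal 3) with treated and saline samples interleaved. Per kilobase, the ratio of Penk to Pdyn was 14.3, 6.24, 5.32 and 4.04 in NAc Sal and 4.64, 3.52, 2.7 and 4.09 in NAc METH, groups that overlapped. In DG Sal 1, DG METH 1, 2 and 4, and CA Sal 1 and 3 the ratio was under 1, so that Pdyn was the higher of the pair in those samples. Their dentate granule sums were 202, 415, 352, 266, 335 and 397 CPM, against 28.3 to 199.6 CPM in the other DG and CA samples. The part of granule cells in this ratio was not tested.

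Pomc was low outside a single library. It had 10 to 97 reads in 31 samples and 362 reads in NAc METH 3. The level was 25.2 CPM there, against 1.41, 0.860 and 1.40 CPM in the other METH samples and 1.31 to 1.96 CPM in the saline samples of the NAc. The next highest value among the 32 samples, 4.46 CPM, was that of SVZ METH 3. These were also the libraries with the highest hypothalamic marker sums, 1566 CPM in NAc METH 3 and 91.4 CPM in SVZ METH 3, and Oxt alone reached 884 CPM in NAc METH 3.

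Pnoc, the nociceptin precursor gene, ranged from 1.21 CPM (NAc Sal 1) to 17.9 CPM (SVZ METH 4), with 16 to 381 reads. Its saline values in the CA lay close together, at 4.54, 4.68, 4.43 and 4.69 CPM, and all 4 METH values there, 7.35, 4.97, 9.97 and 5.25 CPM, lay above them. In the other regions the treatment groups overlapped, with 1.21 to 9.14 and 3.67 to 14.9 CPM in NAc Sal and METH, 4.10 to 12.0 and 5.16 to 8.16 CPM in the DG, and 2.71 to 13.8 and 6.23 to 17.9 CPM in the SVZ.

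**Figure D1:**
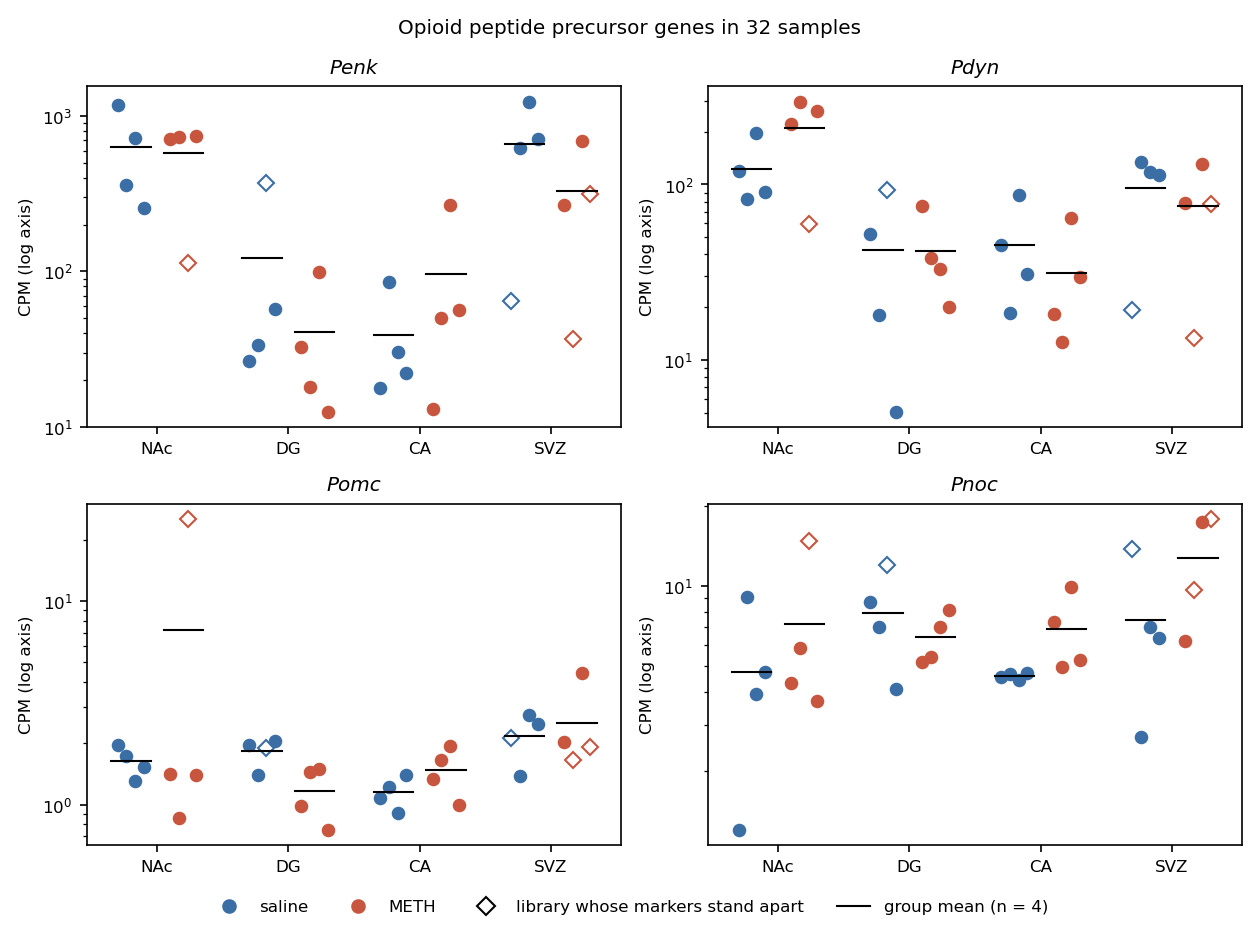
Levels of Penk, Pdyn, Pomc and Pnoc in CPM on log axes, by region, with saline in blue and METH in red, 1 point per sample and a line at the mean of each group of 4. Open diamonds mark the 5 libraries whose markers stood apart, among them NAc METH 3, where Pomc reached 25.2 CPM and Penk was 113 CPM.

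Among the receptor genes, Oprk1 showed the widest spread, from 0.565 CPM (DG METH 4, 9 reads) to 28.3 CPM (NAc Sal 3, 325 reads). In the NAc it stood at 21.7, 15.6, 28.3 and 17.7 CPM with saline and at 19.1, 25.9, 15.8 and 23.2 CPM with METH, and NAc METH 3 was in range although its Penk and Pdyn were low. In DG Sal the values were 1.57, 3.32, 20.1 and 1.88 CPM and in DG METH 1.84, 0.722, 3.19 and 0.565 CPM. In SVZ Sal they were 0.755, 21.3, 22.8 and 22.8 CPM and in SVZ METH 10.3, 0.982, 13.3 and 3.99 CPM. The lowest SVZ value of each treatment came from SVZ Sal 1 and SVZ METH 2, which also held the lowest Penk of their groups, and the highest DG value came from DG Sal 3, which held the highest Penk of the DG. All CA values lay between 1.02 and 4.68 CPM.

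Oprm1, the μ receptor gene, stood at 35.7, 23.1, 24.1 and 17.0 CPM in NAc Sal and at 18.6, 24.4, 24.3 and 15.2 CPM in NAc METH. In CA Sal it was 7.95, 8.90, 9.22 and 7.82 CPM and in CA METH 8.86, 11.4, 11 and 11.6 CPM, where 3 of the 4 METH values lay above all saline values. The highest SVZ values, 31.2 CPM in SVZ Sal 1 and 32 CPM in SVZ METH 2, came from libraries with high thalamic markers. The other SVZ samples held 11 to 17.7 CPM. These 2 libraries held the lowest Penk and Oprk1 values of the SVZ.

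Oprd1, the δ receptor gene, was low throughout, at 1.17 to 12.4 CPM (25 to 174 reads). The lowest of its values were those of SVZ METH 4 (1.17 CPM), SVZ Sal 1 (1.27 CPM) and SVZ METH 2 (1.40 CPM). Oprl1, the nociceptin receptor gene, ranged from 8.36 to 81.8 CPM. Its extremes both lay in the NAc, 8.36 CPM in NAc Sal 1, which had the highest striatal sum (7607 CPM), and 81.8 CPM in NAc METH 3, which had the lowest (159 CPM). In DG, CA and SVZ the medians were 37.1, 45.1 and 27.8 CPM over 8 samples each.

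**Figure D2:**
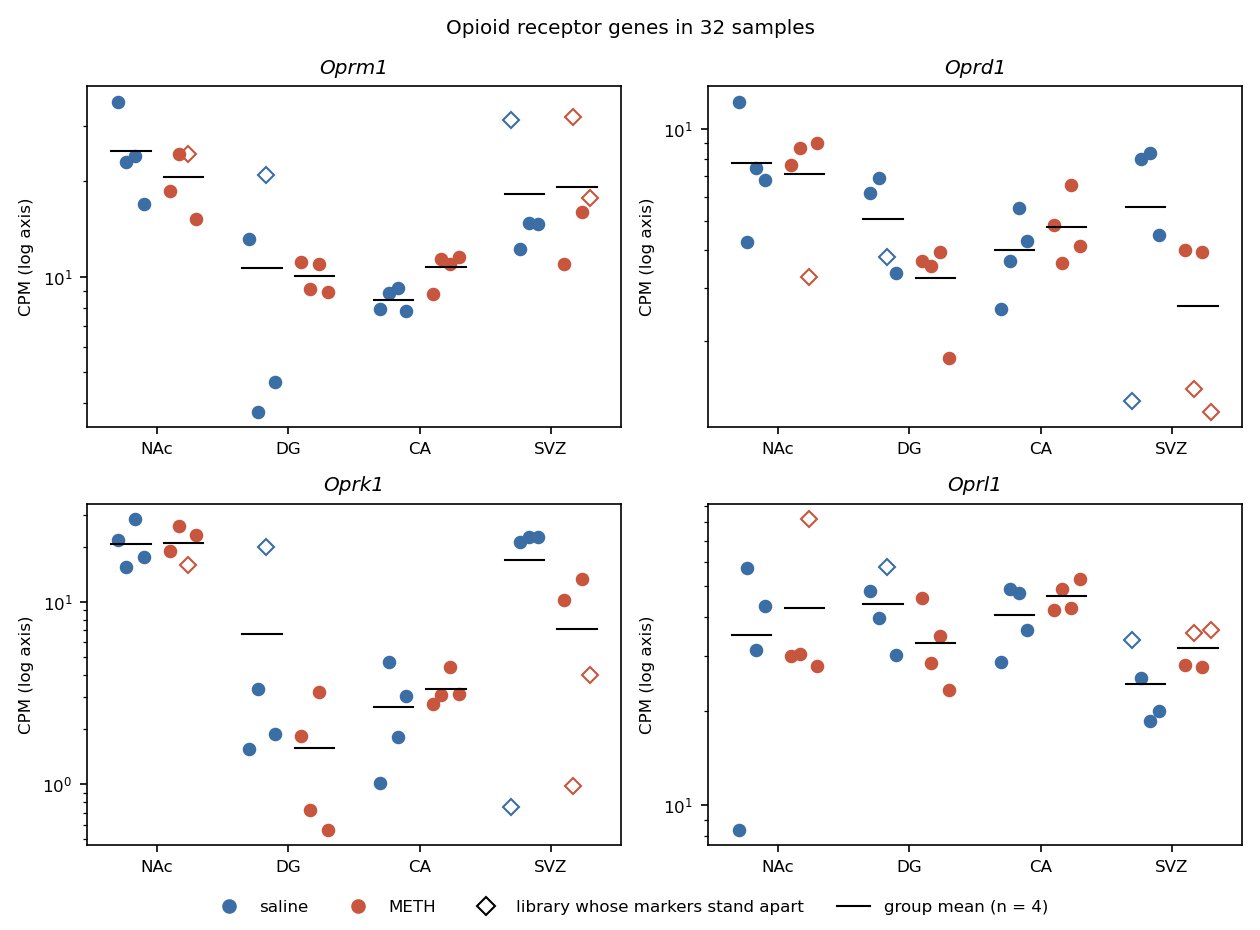
Levels of Oprm1, Oprd1, Oprk1 and Oprl1 in CPM on log axes, drawn in the same way. Oprk1 of the NAc stayed between 15.6 and 28.3 CPM, while the SVZ and DG held values from 0.565 to 22.8 CPM, and Oprl1 was highest in NAc METH 3 (81.8 CPM).

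The 6 pairs of regions were compared in the 16 saline samples, and a gene was called when its FDR was under 0.01 and its fold change above 2. None of the 8 opioid genes was called in any pair by edgeR's quasi-likelihood test. Among all genes tested, 0.812% were called between SVZ and CA, 0.0193% between SVZ and DG and 0% in the other 4 pairs. At an unadjusted p under 0.05, 3 of the 8 passed between NAc and CA (background 24.1%), 2 between NAc and DG (11.5%), 1 between SVZ and DG (17.6%), 4 between SVZ and CA (31.6%), 1 between DG and CA (8.93%) and 0 between NAc and SVZ (12.6%). With DESeq2, Penk and Oprk1 were called between NAc and CA (3.41% of all genes) and Penk between SVZ and CA (4.94%), with 0 called in the other pairs.

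Penk, the enkephalin precursor gene, had the largest differences. Its mean was 631 ± 418 CPM (SD, n = 4) in NAc Sal and 659.8 ± 481 CPM in SVZ Sal, against 122 ± 165 CPM in DG Sal and 39.0 ± 31.5 CPM in CA Sal. The log2 difference between NAc and CA was 4.02 (SE 1.02, edgeR FDR 0.0401), with groups that did not overlap, as for 22.3% of all genes. Between SVZ and CA it was 4.08 (SE 1.02, edgeR FDR 0.0219), between NAc and DG 2.37 (SE 0.94, edgeR FDR 0.378) and between SVZ and DG 2.44 (SE 0.95, edgeR FDR 0.210). NAc and SVZ differed by -0.06 (SE 0.90) and DG and CA by 1.64 (SE 0.93). Without SVZ Sal 1 and DG Sal 3, the NAc exceeded the DG by 4.01 (SE 0.69, edgeR FDR 0.00560) and the CA by 4.02 (SE 0.61, edgeR FDR 0.00174), and the SVZ exceeded them by 4.45 (SE 0.72, edgeR FDR 0.00349) and 4.46 (SE 0.64, edgeR FDR 0.00115), all of which were called. DG and CA then differed by 0.01 (SE 0.59). Within the run label that held NAc Sal 3 and 4 and DG Sal 1, 2 and 4, Penk was 727 and 257 CPM in the NAc and 26.5 to 57.4 CPM in the DG. The library numbers of DG Sal 1 and 2 were those of METH samples in the NAc and CA. In bulk tissue, fewer cells of a type and less RNA per cell cannot be told apart.

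Oprk1, the κ receptor gene, was also lowest in the hippocampal regions, with means of 20.8 ± 5.59 CPM in NAc Sal, 16.9 ± 10.8 CPM in SVZ Sal, 6.71 ± 8.94 CPM in DG Sal and 2.64 ± 1.59 CPM in CA Sal. The log2 difference between NAc and CA was 2.99 (SE 0.93, edgeR FDR 0.0717) without overlap, and that between SVZ and CA was 2.69 (SE 0.92, edgeR FDR 0.0638) with overlap through SVZ Sal 1. Against the DG the differences were 1.61 (SE 0.86) for the NAc and 1.31 (SE 0.86) for the SVZ. Without SVZ Sal 1 and DG Sal 3 the differences of Oprk1 were 3.21 (NAc over DG, edgeR FDR 0.00151), 3.0 (NAc over CA, edgeR FDR 0.000569), 3.31 (SVZ over DG, edgeR FDR 0.00186) and 3.10 (SVZ over CA, edgeR FDR 0.000619), each called. The background of called genes in that fit was 1.28%, 3.01%, 2.5% and 4.54% for NAc over DG, NAc over CA, SVZ over DG and SVZ over CA.

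Oprm1 had means of 25 ± 7.81 CPM in NAc Sal and 8.47 ± 0.693 CPM in CA Sal, a log2 difference of 1.56 (SE 0.46, edgeR FDR 0.0620), and these groups did not overlap. The SVZ (18.2 ± 8.74 CPM) also did not overlap with the CA (difference 1.10, SE 0.45, edgeR FDR 0.114), as for 21.8% of all genes. Against DG Sal (10.6 ± 8.08 CPM), the Oprm1 differences were 1.22 (SE 0.45) for the NAc and 0.77 (SE 0.45) for the SVZ. Without the 2 libraries the NAc exceeded the CA by 1.56 (SE 0.33, edgeR FDR 0.00901), which was called, while Oprm1 differed from the DG by 1.79 (SE 0.37, edgeR FDR 0.0128) for the NAc and 0.94 (SE 0.38, edgeR FDR 0.115) for the SVZ and from the CA by 0.72 (SE 0.35) for the SVZ. With saline and METH samples averaged in a fit of all 32 that took regions with the same library number as independent, Penk, Oprm1 and Oprk1 were called between NAc and DG (2.88% of all genes), these and Pdyn between NAc and CA (5.14%), Penk between SVZ and DG (4.31%) and Penk and Oprk1 between SVZ and CA (9%). The differences of Pdyn were 1.42 (NAc over CA, SE 0.74), 1.52 (NAc over DG, SE 0.74), 1.07 (SVZ over CA, SE 0.73) and 1.17 (SVZ over DG, SE 0.73), none with an FDR under 0.25. Without the 2 libraries those of Pdyn were 1.42, 2.27 (edgeR FDR 0.0528), 1.42 and 2.26 (edgeR FDR 0.0472), none of them called. The differences of Pomc from the CA were 0.92 (SE 0.25, edgeR FDR 0.0282) for the SVZ and 0.67 (SE 0.25, edgeR FDR 0.504) for the DG, at 15 to 57 reads per sample. For Pnoc, Oprd1 and Oprl1, 0 of the 6 pairs reached an unadjusted p under 0.05.

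**Figure D3:**
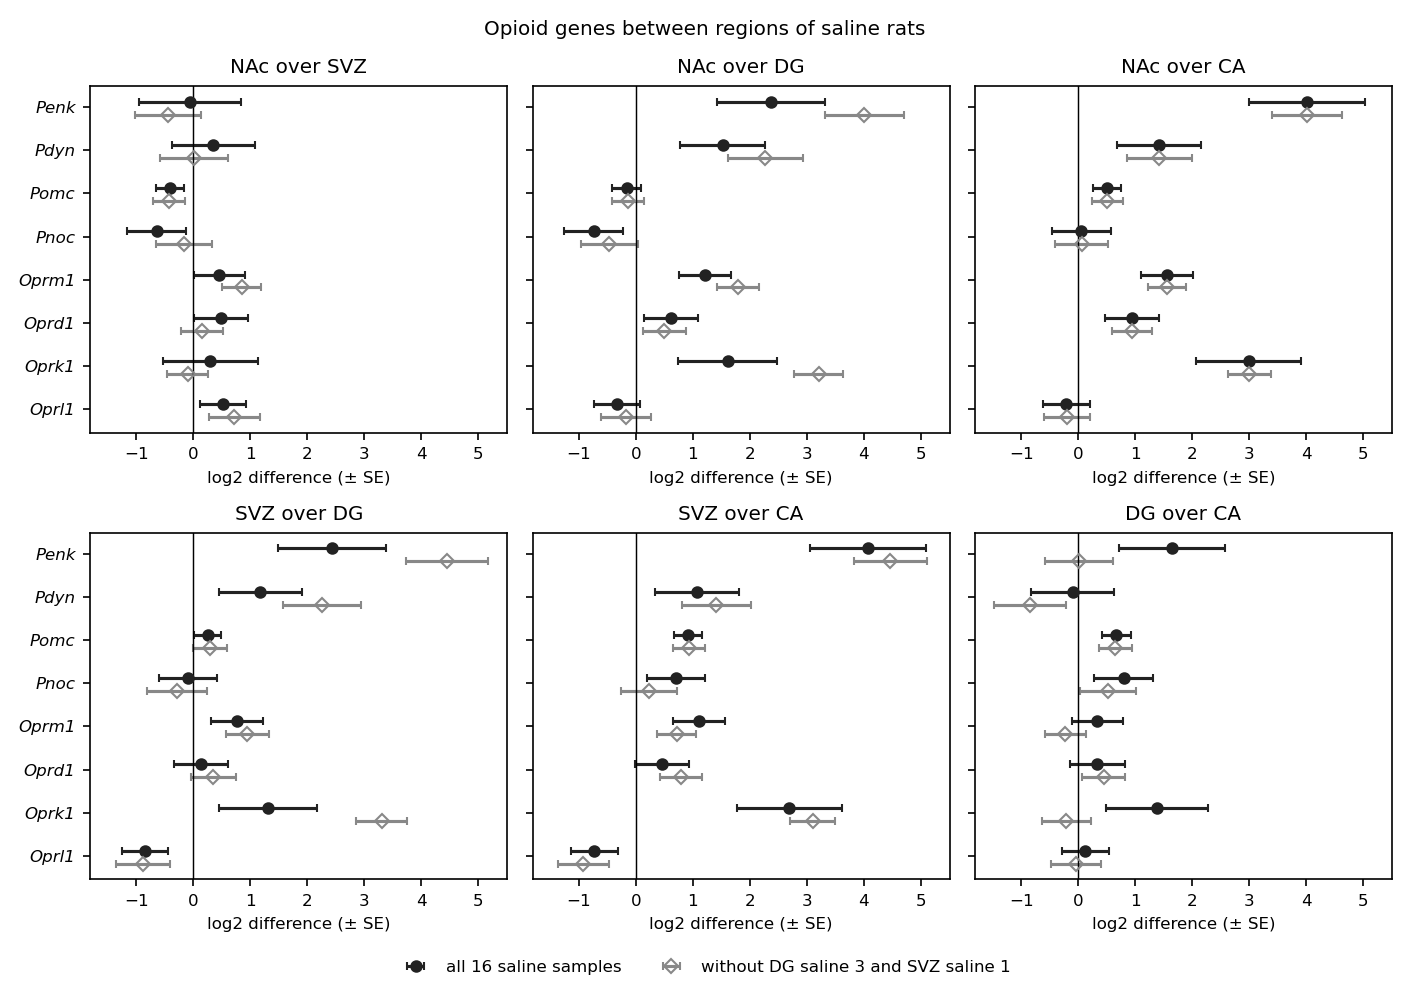
Log2 differences of the opioid genes between pairs of regions in saline rats, with bars of 1 SE. Filled circles use all 16 saline samples and open diamonds leave out DG Sal 3 and SVZ Sal 1. Penk over the CA lay at 4.02 for the NAc and 4.08 for the SVZ, and Penk over the DG moved from 2.37 to 4.01 (NAc) and from 2.44 to 4.45 (SVZ).

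METH and saline were compared within each region, where calls needed a fold change above 1.5 and an FDR under 0.01. In the 32 comparisons of 8 genes in 4 regions, 0 were called by edgeR and 0 by DESeq2. In edgeR no gene of the whole table was called either (0% in each region), while DESeq2 called 0.0203%, 1.30%, 0.0890% and 0.0128% of all genes in the NAc, DG, CA and SVZ. The main edgeR fit here did not remove unwanted variation. The study did so with RUVr before its edgeR test and reported changed genes in each region. At an unadjusted p under 0.05, edgeR passed 2 of the 8 in the CA (background 7.16%) and 0 of the 8 in the NAc (3.39%), DG (12.8%) and SVZ (2.58%). DESeq2 passed 1 in the DG (background 14.3%), 2 in the CA (7.05%) and 0 in the NAc (3.54%) and SVZ (3.47%). These counts depended on the fit. In the SVZ 4 passed without SVZ Sal 1 (16.4% of all genes) and 4 with 4 RUVr factors, which stand for unwanted variation (21% of all genes). In the DG 3 passed without DG METH 3 (12.7%) and 4 with a block for the replicate number (12.3%). In the CA 0 passed in a single fit of all 32 samples (3.65%) and with 2 RUVr factors (7.23%), and with 1 CA library left out the count ran from 0 (without CA Sal 1) to 3 (without CA Sal 2). Standard errors of the log2 fold changes ran from 0.12 (Oprm1 in the CA) to 1.06 (Pomc in the NAc), so the smallest changes that could be seen differed widely among these genes. All p-values measure the spread between the samples of a group, which the labels did not tie to single rats beyond their numbers.

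In the NAc, Pdyn had a log2 fold change of 0.80 (SE 0.47, edgeR FDR 0.999), from 122 ± 51.4 to 210 ± 105 CPM (SD, n = 4). Without NAc METH 3 the fold change of Pdyn was 1.11 (SE 0.28, unadjusted edgeR p of 0.00449, FDR 0.944), where 4.83% of all genes had an unadjusted p under 0.05. The 3 METH samples left lay above the 4 saline samples. The share of all genes that did so was not computed, so this separation cannot be said to set Pdyn apart. Within the run that held NAc Sal 3 and 4 and NAc METH 1 and 2, Pdyn was 196 and 91.1 CPM with saline and 221 and 297 CPM with METH. Pomc had a fold change of 2.16 (SE 1.06, FDR 0.999) with NAc METH 3 and of -0.40 (SE 0.28, FDR 0.944) without it. The other log2 fold changes in the NAc were -0.12 for Penk (SE 0.63), 0.61 for Pnoc (SE 0.61), -0.26 for Oprm1 (SE 0.24), -0.10 for Oprd1 (SE 0.38), 0.03 for Oprk1 (SE 0.22) and 0.29 for Oprl1 (SE 0.56). Of these, Penk, Pnoc, Oprd1 and Oprl1 took the opposite sign without NAc METH 3.

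In the DG all 8 fold changes were below 0, where 52% of all genes were. They ranged from -2.07 for Oprk1 (SE 0.93, edgeR FDR 0.406) and -1.58 for Penk (SE 0.98) to -0.02 for Pdyn (SE 0.76). Pomc stood at 1.83 ± 0.292 CPM with saline and 1.17 ± 0.362 CPM with METH, a log2 fold change of -0.64 (SE 0.29, edgeR FDR 0.406), and Oprd1 also stood at -0.64 (SE 0.33). Oprl1, Pnoc and Oprm1 stood at -0.41 (SE 0.25), -0.30 (SE 0.32) and -0.09 (SE 0.50). Without DG Sal 3, 5 of the 8 were below 0, Oprk1 stood at -0.48 (SE 0.61), and Penk (0.05), Pdyn (0.73) and Oprm1 (0.48) were above 0. With replicates 3 and 4 of the DG alone, whose library numbers were not crossed, Oprk1 stood at -2.53 (SE 1.42) and Penk at -1.93 (SE 1.35). The only DG run with both treatments held DG Sal 3, DG METH 1 and DG METH 2.

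In the CA, 7 of the 8 fold changes were above 0, where 51.1% of all genes were. Pnoc stood at 0.59 (SE 0.23, unadjusted edgeR p of 0.0282, FDR 0.674), from 4.58 ± 0.125 to 6.88 ± 2.31 CPM, and its groups did not overlap, as for 4.48% of all genes. Oprm1 stood at 0.34 (SE 0.12, unadjusted edgeR p of 0.0231, FDR 0.669), from 8.47 ± 0.693 to 10.7 ± 1.26 CPM. Both genes thus missed the adjusted threshold. Summed pyramidal markers were lower in all CA METH samples than in all CA Sal samples, and their part in these values was not tested. With 1 CA library left out in turn, p ranged from 0.0107 to 0.0791 for Pnoc and from 0.00563 to 0.0614 for Oprm1 (edgeR). Within the run of CA Sal 4, CA METH 1 and CA METH 2, Pnoc was 4.69 CPM with saline and 7.35 and 4.97 CPM with METH. In that of CA Sal 3, CA METH 3 and CA METH 4 it was 4.43 CPM with saline and 9.97 and 5.25 CPM with METH. Penk stood at 1.32 (SE 0.84), and at 0.04 without CA METH 3. Pdyn (-0.53, SE 0.57), Pomc (0.37, SE 0.27), Oprk1 (0.36, SE 0.41), Oprd1 (0.26, SE 0.27) and Oprl1 (0.20, SE 0.17) did not pass.

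In the SVZ, 4 fold changes lay on each side of 0. Oprk1 stood at -1.24 (SE 0.99), Oprd1 at -1.07 (SE 0.64), Penk at -1.0 (SE 0.94) and Pdyn at -0.34 (SE 0.72). Pnoc stood at 0.78 (SE 0.51), Oprl1 at 0.39 (SE 0.20), Pomc at 0.21 (SE 0.38) and Oprm1 at 0.08 (SE 0.40). Without SVZ Sal 1, SVZ METH 2 and SVZ METH 4, 3 saline and 2 METH libraries were left, 1 of them SVZ METH 3 with its choroid plexus sum of 7989 CPM and thalamic sum of 467 CPM. Oprk1 then stood at -0.92 (SE 0.17, unadjusted edgeR p of 0.00173, FDR 0.61), with 10.3 and 13.3 CPM against 21.3, 22.8 and 22.8 CPM. Oprd1 and Oprl1 also did not overlap between these 2 METH and 3 saline libraries. The share of all genes that did not overlap there was not computed. In that fit 6.73% of all genes had an unadjusted p under 0.05. Penk (-0.84, SE 0.48), Oprd1 (-0.81, SE 0.33), Pnoc (1.15, SE 0.55) and Oprl1 (0.39, SE 0.17) kept their sign and did not pass. With SVZ METH libraries of the same number summed, Oprk1 stood at -1.26 (SE 1.10) and 0 of the 8 were called.

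**Figure D4:**
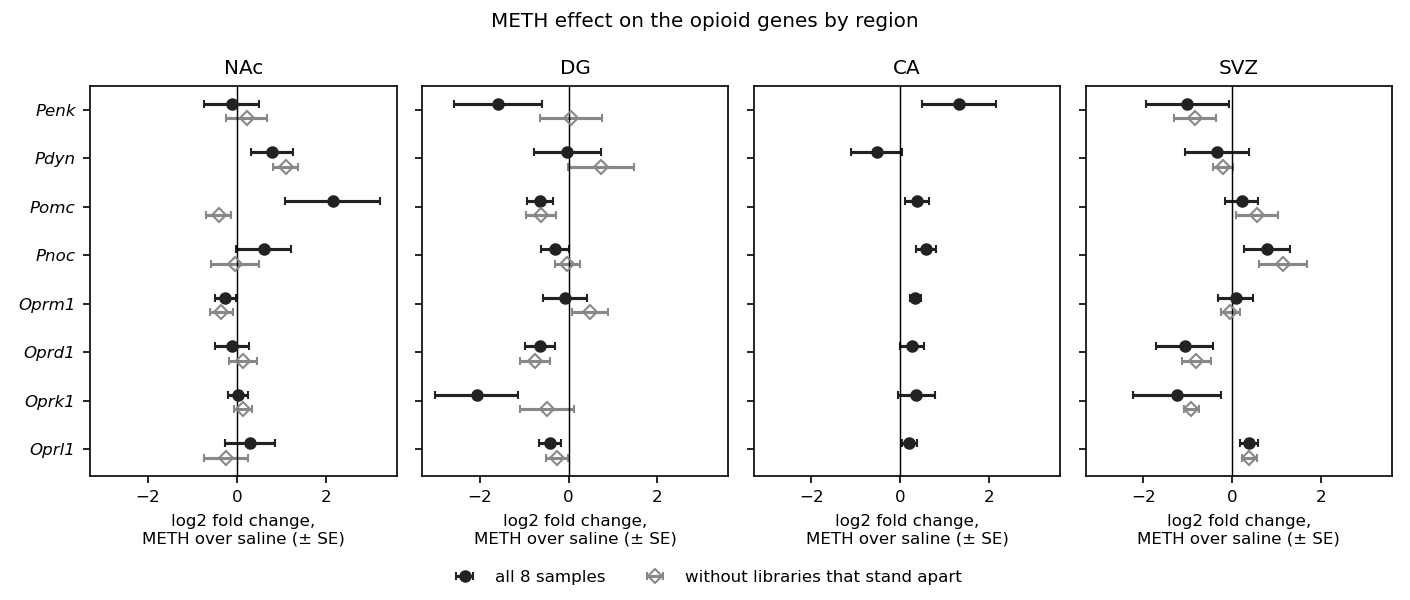
Log2 fold changes of METH over saline with bars of 1 SE for the 8 opioid genes in each region. Filled circles use all 8 samples of a region and open diamonds leave out the 5 libraries with outlying striatal, thalamic or hypothalamic sums, none of which came from the CA. Pomc in the NAc moved from 2.16 to -0.40 and Oprk1 in the DG from -2.07 to -0.48.

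The METH effects were also compared between regions in a fit of all 32 samples. Averaged over the 4 regions, 0 of the 8 genes passed an unadjusted p under 0.05 (background 7.83%), with means from -0.73 for Oprk1 (SE 0.39) to 0.52 for Pomc (SE 0.33). Oprk1 averaged -0.34 (SE 0.35) without DG Sal 3 and -0.22 (SE 0.22) without the 5 libraries, and Pomc -0.03 without the 5. A joint test of a difference among the 4 regions gave an unadjusted p under 0.05 for Pomc alone (unadjusted edgeR p of 0.0411, FDR 0.62, background 7.74%), and p was 0.0507 without the 5 libraries. The effect in the DG minus that in the CA was -2.89 for Penk (SE 1.38, unadjusted edgeR p of 0.0462, FDR 0.376) and -2.42 for Oprk1 (SE 1.16, unadjusted edgeR p of 0.0456, FDR 0.374), 2 of the 8 genes at an unadjusted p under 0.05 beside 12.9% of all genes. Of all genes, 0.0124% were called in that comparison, and 0 of the 8 were. Without the 5 libraries these differences were -1.26 (SE 1.06) and -0.83 (SE 0.63). Both DG groups held libraries whose numbers were crossed between the treatments (replicates 1 and 2). The effect in the NAc minus that in the SVZ was 1.93 for Pomc (SE 0.90, unadjusted edgeR p of 0.0421, FDR 1.00), the only one of the 8 with an unadjusted p under 0.05 (background 1.54%), and -0.97 (SE 0.49) without the 5 libraries.

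Striatal markers moved with Penk from sample to sample. Penk was 21.5% to 24.8% of the striatal marker sum in the 4 SVZ Sal samples, although Penk itself ranged from 64.2 to 1240.1 CPM there. The share was 15.5% to 27.2% in NAc Sal, and 23.2% in DG Sal 3, whose level of 369 CPM was far from its group. In the other DG samples it was 7.62% to 29.3%, so the share did not set DG Sal 3 apart. The share was 70.9% in NAc METH 3, where the sum was 159 CPM, and 17.4% to 54.1% in SVZ METH, highest in SVZ METH 4. In CA METH 3 it was 56.2%, against 5.62% to 30.5% in the other CA samples. In NAc METH 3 the 8 striatal markers were detected, and Drd1 and Ppp1r1b stood at 7.30 and 41.7 CPM, against at least 97.6 and 478 CPM in the other NAc samples. The part of striatal tissue in the region and METH differences was not tested.

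As a share of the striatal sum, Pdyn was 1.56%, 6.26%, 6.05% and 5.84% in NAc Sal and 8.62%, 9.97%, 37.6% and 8.49% in NAc METH. NAc METH 1, 2 and 4 lay above all saline samples, as they did in level. With NAc METH 3 counted, all METH shares lay above all saline shares, as for 0.0769% of 14301 genes. The 37.6% of NAc METH 3 came with its striatal sum of 159 CPM and with the lowest Pdyn level of the NAc (59.8 CPM), and Oprk1 was 9.95% of the sum there against 0.285% to 1.18% in the other NAc samples. This ratio was chosen after the values were seen and is given as a description, so the 0.0769% does not measure how rare the pattern is. The striatal sum also holds Drd1 and Drd2, which the study reported as lower in the NAc after METH. In the SVZ the Pdyn shares overlapped, at 2.34% to 6.74% with saline and 5.24% to 13.4% with METH.

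**Figure D5:**
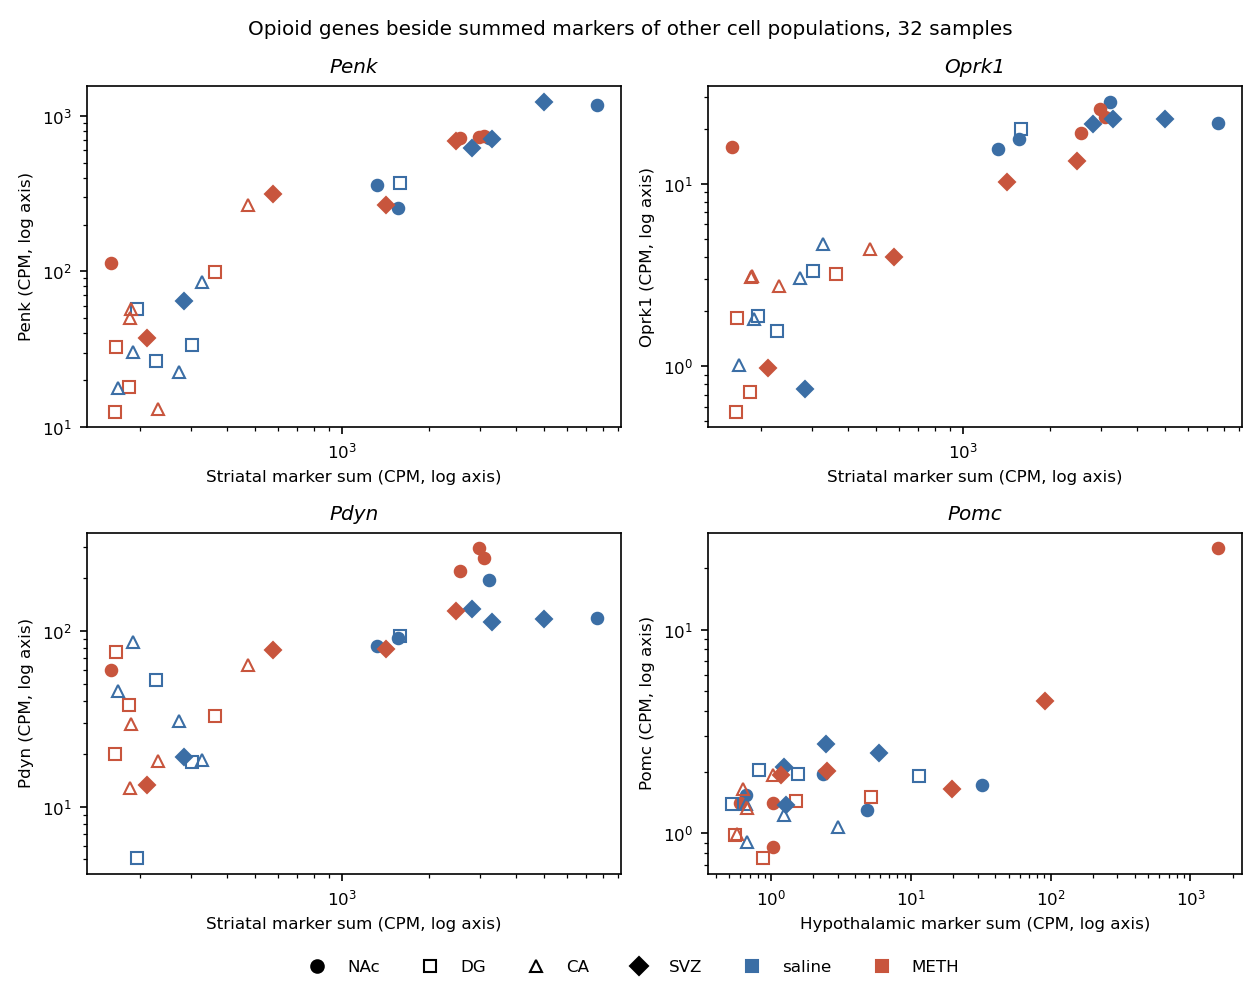
Penk, Oprk1 and Pdyn against the summed striatal markers and Pomc against the summed hypothalamic markers, in CPM on log axes, with 1 symbol per sample, shaped by region and coloured by treatment. NAc METH 3 is the red circle at the far left of the 3 striatal panels (159 CPM) and at the far right of the Pomc panel (1566 CPM).

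For each opioid gene, the 3 genes with the most similar pattern were sought by Pearson's r of log2(CPM + 1) over the 32 samples, among 14453 genes with a mean of at least 1 CPM. These samples share regions and dissections, and r describes them only. Penk was nearest to Drd2 (r = 0.96), the D2 dopamine receptor gene, Adora2a (0.95), an adenosine receptor gene, and Krt71 (0.95). Drd2 and Adora2a are also part of the striatal marker sum. Oprk1 was nearest to Gabrg3 (0.96), Tac1 (0.95), the substance P precursor gene, and Sesn3 (0.95). Pdyn was nearest to Dcdc2c (0.86), Tcaf1 (0.85) and Stk26 (0.85). Pomc was nearest to Sim1 (0.89), Avp (0.88) and Oxt (0.80), genes of hypothalamic neurons, of which Avp and Oxt had their highest levels in NAc METH 3. Oprm1 was nearest to AABR07001432.2 (0.95), which lies within the span of Oprm1 on the opposite strand. It shares no exon bases with Oprm1, but counting ignored strand, so its reads and those from introns of Oprm1 cannot be told apart. Srgap1 (0.88) and Ache (0.84) followed. Pnoc was nearest to Metrnl (0.81), Trim67 (0.78) and Eef1b2 (0.77), Oprd1 to Lrrtm3, Mark2 and Ctdspl (each 0.89), and Oprl1 to Abcb10 (0.90), Slc39a6 (0.88) and Gnas (0.87).

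The wider pathway was followed in 41 genes of 4 lists, the enzymes that cut the precursors, the peptidases that break the peptides down, the effectors of the receptors, and receptor regulators with related receptors. With METH, 0 of them were called in any region. At an unadjusted p under 0.05 there were 0 of 39 tested in the NAc, 6 of 38 in the DG (3 higher and 3 lower), 8 of 38 in the CA (4 higher and 4 lower) and 1 of 39 in the SVZ, beside the background shares of 3.39%, 12.8%, 7.16% and 2.58%. The median log2 fold changes of the 4 lists lay between -0.059 and 0.054 in the NAc, -0.30 and 0.15 in the DG, -0.047 and 0.091 in the CA and -0.19 and 0.10 in the SVZ, beside medians over all genes of 0.029, -0.011, 0.0051 and 0.016. In the DG the lowest p values were those of Rgs4 (-2.27, SE 0.50, edgeR FDR 0.172), which limits signalling of inhibitory G proteins, Ece1 (-0.38, SE 0.13, edgeR FDR 0.297), a peptidase, and Kcnj6 (1.01, SE 0.38, edgeR FDR 0.330), a subunit of the potassium channel that these receptors open. In the CA they were those of Rgs20 (0.38, SE 0.12), Mme (-0.71, SE 0.24), which encodes the enkephalin-cleaving enzyme neprilysin, and Adcy5 (0.50, SE 0.18), an adenylyl cyclase, each with an edgeR FDR of 0.669. In the NAc they were those of Arrb1 (-0.15, SE 0.08), a β-arrestin, Adcy1 (-0.60, SE 0.35) and Rgs19 (0.18, SE 0.11), and in the SVZ those of Arrb1 (-0.30, SE 0.09), Mme (-1.38, SE 0.67) and Kcnj5 (0.38, SE 0.19), none with an FDR under 0.97. Between saline regions, 0 of the 41 were called, and the count at an unadjusted p under 0.05 ran from 2 of 39 (5.13%, NAc against SVZ) to 19 of 39 (48.7%, NAc against CA), beside 12.6% and 24.1% of all genes.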

How the data were processed

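RNA was measured in 32 rat brain samples. Per the labels and methods, the authors sequenced rRNA-depleted total RNA, trimmed reads with cutadapt 2.7, checked them with FastQC 0.11.4, aligned them to rn6 with STAR 2.5.2b and, per the file headers, used featureCounts on an Ensembl annotation without strand. The deposited values are raw read counts per gene, with no normalization. Total counts were 11094002 to 21869773 per sample. Genes with few reads, such as Pomc, are measured less precisely.

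Genes were filtered with filterByExpr and tested across all genes with edgeR 4.0.16 in R 4.3.3 (upper-quartile library sizes, quasi-likelihood test, Benjamini-Hochberg FDR, two-sided). METH and saline were compared in the 8 samples of each region, saline regions in 16 samples, and differences of METH effects in all 32. Calls needed an FDR under 0.01 and a fold above 1.5 (METH) or 2 (regions). Levels, ratios and motif matches were computed in Python 3.11.15 with pandas 2.3.3. Alternatives were TMM, DESeq2 1.42.0, other filters, RUVr factors, a replicate block and left-out libraries. The pipeline was tested on simulated data. Saline NAc and CA replicates deviated together by number (correlations 0.119 to 0.243). METH and saline numbers did not do so in every pair of any region (in the DG 0.371, 0.128, 0.206 and -0.203), so the block was kept as an alternative. The named genes were the 8 opioid genes and, per region, up to 3 genes of the pathway lists with the lowest p, together with the 3 genes most like each opioid gene. Leaving out the 5 libraries and the block fit of saline NAc and CA alone were chosen after seeing the data. The genes and lists were chosen with earlier results of these data known.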

Additional observations from a re-analysis of the deposited data

Results flagged for a closer look

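In 8 of the 64 groups of 4 samples (8 genes in 8 groups), the highest or lowest sample was separated from the others by a gap that Dixon's test passes in about 1 of 20 groups by chance. NAc METH 3 held 3 of them, Penk at 113 CPM (717 to 749 in the others), Pomc at 25.2 CPM (0.860 to 1.41) and Oprl1 at 81.8 CPM (27.9 to 30.5). DG Sal 3 held Penk at 369 CPM (26.5 to 57.4) and Oprk1 at 20.1 CPM (1.57 to 3.32). SVZ Sal 1 held Oprk1 at 0.755 CPM (21.3 to 22.8) and Oprm1 at 31.2 CPM (12.2 to 14.8). The last was Pomc in SVZ METH 3 at 4.46 CPM (1.65 to 2.02). Of these values, 7 came from the libraries whose markers stood apart, and SVZ METH 3 had the next highest hypothalamic marker sum after NAc METH 3. The part of other tissue in these values was not tested.

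The METH effect differed between regions by an unadjusted p in edgeR's test for Pomc among the 4 regions (p of 0.0411), for Penk (p of 0.0462) and Oprk1 (p of 0.0456) between DG and CA, and for Pomc between NAc and SVZ (p of 0.0421). Their FDR values lay between 0.374 and 1.00, and so they failed the correction.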

How the results depend on the processing

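The count of opioid genes called with METH was 0 in all 230 refits. Of the 506 refits of the 59 reported values that kept every group, 462 left direction and side of the threshold as reported, 22 brought an additional call and 22 turned the sign; of 784 refits without 1 library, 751, 1 and 32 did. The cause of these changes was not tested. Oprk1 in the NAc turned to -0.0043 with TMM, -0.0016 with DESeq2 and -0.0057 with 2 RUVr factors. Without the 5 libraries, values turned to 0.22 (Penk), -0.40 (Pomc), -0.044 (Pnoc), 0.14 (Oprd1) and -0.24 (Oprl1) in the NAc, 0.053 (Penk), 0.73 (Pdyn) and 0.48 (Oprm1) in the DG, -0.037 (Oprm1) in the SVZ, -0.029 for the mean effect of Pomc, -0.97 for Pomc in the NAc minus SVZ, and -0.10 for Oprk1 in saline NAc minus SVZ. In the DG, Pdyn turned to 0.18 and 0.54 with 2 and 4 RUVr factors and Oprm1 to 0.072 with 4. Penk in saline NAc minus SVZ turned to 0.38 over both treatments.

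With the replicate block, Pdyn (0.52) and Oprm1 (0.22) in the DG and Penk in saline NAc minus SVZ (0.36) turned sign, 4 opioid genes in the DG had an unadjusted p under 0.05 in place of 0 (12.3% of all genes), and no call changed. In a block fit of saline NAc and CA alone, where the numbers pair the samples, 0 were called, with Penk at 4.05 (edgeR FDR 0.0274), Pdyn at 1.56 (0.0126), Oprm1 at 1.51 (0.0149) and Oprk1 at 3.08 (0.0229).

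Between saline regions, 0 opioid genes were called as reported. Averaging both treatments gave 3 (NAc and DG), 4 (NAc and CA), 1 (SVZ and DG) and 2 (SVZ and CA), leaving out the 5 libraries gave 2, 3, 2 and 2, and DESeq2 gave 2 (NAc and CA) and 1 (SVZ and CA). Leaving out 1 library gave 0 to 1 between SVZ and CA, the 1 being Penk without DG Sal 3.

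With 1 library left out, the fold changes in the NAc ranged over -0.38 to 0.37 (Penk), -0.40 to 2.52 (Pomc), -0.044 to 1.14 (Pnoc), -0.31 to 0.22 (Oprd1), -0.094 to 0.20 (Oprk1) and -0.24 to 0.63 (Oprl1). In the DG they ranged over -2.54 to 0.053 (Penk), -0.48 to 0.73 (Pdyn) and -0.37 to 0.48 (Oprm1), and in the SVZ over -0.76 to 0.0031 (Pdyn), -0.22 to 0.37 (Pomc) and -0.29 to 0.46 (Oprm1). The mean effect of Pomc ranged over -0.12 to 0.61, its NAc minus SVZ difference over -0.62 to 2.36, and saline NAc minus SVZ over -0.56 to 0.44 for Penk and -0.10 to 0.48 for Oprk1. Pomc and Oprk1 had as few as 10 and 9 reads in a sample, which limits what these libraries can show for them.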
